A study of Mus musculus and Rattus norvegicus with 4 samples.

Results

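The peaks described here were the MEF2A binding regions of C2C12 cells that lay between genes but not far from one. They were chosen by position alone: outside every protein-coding gene span of RefSeq GRCm38 (the assembly behind mm10), more than 5 kb and at most 100 kb from the nearest such span, and with no long noncoding RNA (lncRNA) gene overlapping or within 5 kb. This rule took 545 of the 2797 C2C12 peaks (19.5%, exact 95% interval 18.0 to 21.0%), out of 4665 MEF2A peaks in the series. The deposited score played no part in the choice. "Intergenic" held for coding and lncRNA genes only, since 9 of the 545 peaks (1.65%) overlapped the span of a pseudogene, another noncoding RNA or a T cell receptor locus.

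The series mapped MEF2A by ChIP-exo, in which an exonuclease trims the immunoprecipitated DNA towards the edges of the bound protein. Its 4 libraries were made with a MEF2A antibody and with normal rabbit IgG, each from primary rat cardiomyocytes and from C2C12. C2C12 is a mouse skeletal myoblast line, which had been given 2% horse serum for 48 h to differentiate. Only the C2C12 MEF2A peak list enters what follows. It came from 1 library with no replicate, so no test between conditions was possible, and its read depth is unknown. No expression values were used, so the labelled cell type was not checked against markers.

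MEF2A belongs to the myocyte enhancer factor 2 family of MADS-box transcription factors, which bind an A/T-rich motif and act with MyoD-family factors, serum response factor partners and class IIa histone deacetylases. In differentiating muscle, MEF2 proteins occupy promoters and also distal enhancers, which can lie far from the gene they act on, on either side and past a nearer gene. For that reason the protein-coding genes on both sides of each peak were recorded. Both are given for the strongest peaks, and for listed genes the other neighbour is given where it was the nearer. Proximity does not show which gene, if any, a peak acts on.

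Sequence under the peaks was not used here, so the sequences shown are those of neighbouring features in RefSeq (GRCm38.p6). The first set is the microRNAs beside the peaks, because the rule left microRNA genes in. A microRNA hairpin lay within 10 kb of 4 of the 545 peaks and within 100 kb of 43. The share over all C2C12 peaks was not counted, so these counts are a description only. A pair at chr8:84203304-84203696 (score 240) and chr8:84203112-84203235 (score 65.6) lay 4.82 and 5.28 kb before the Mir23a hairpin (84208518 to 84208592, plus strand), the first of a cluster with Mir27a and Mir24-2. The nearest protein-coding span, Zswim4, was farther, at 7.25 and 7.71 kb. The other pair, chr2:84750002-84750431 (score 814) and chr2:84750436-84750561 (score 106), lay 8.82 and 9.26 kb from Mir130a (84741115 to 84741178, minus strand), on the side of its 5′ end. Its flanking coding genes Ypel4 and Serping1, the latter encoding the complement C1 inhibitor, were 11.3 and 14.9 kb from the stronger peak. Both pairs were thus closer to a microRNA than to a coding gene. An lncRNA gene was nearer still to the peak of 814, at 5.60 kb. The mature RNAs of the 3′ arms are printed with bases 2 to 8, the seed that pairs with targets, in capitals; miR-23a is known in muscle as a repressor of the atrophy ligases Fbxo32 and Trim63. The 4 seeds differ.
miR-23a-3p: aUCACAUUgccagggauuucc
miR-27a-3p: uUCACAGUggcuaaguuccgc
miR-24-3p: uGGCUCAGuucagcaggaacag
miR-130a-3p: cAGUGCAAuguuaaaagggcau

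The second set is promoters of flanking genes. The rule keeps members more than 5 kb from every coding span. That no member overlapped a promoter window of the RefSeq table therefore follows from the choice and is no result. To show whether genes beside distal peaks also carried a MEF2 site at their own start, the 250 bases before each start were searched for the MEF2 consensus motif, which reads alike on both strands, so that 1 scan covers both. Of 539 flanking genes with such a sequence, 19 held it (3.53%, exact interval 2.14 to 5.45%), close to the 3.12% of all 17492 protein-coding genes with one. Among the 45 flanking genes that stood in the gene lists described below, 5 held it (11.1%, exact interval 3.71 to 24.1%). These were Mrtfb, Myom3, Myoz2, Synpo2 and Thbs2. The share among listed genes that flank no member was not counted, so the 11.1% cannot be tied to the members. A match is a description of letters and not a measured site. Printed below, 5′ to 3′ and with the match in capitals, are Myoz2 (chr3:123034988-123035237, minus strand) and Synpo2 (chr3:123236150-123236399, minus strand), because a single peak lay between these genes. Thbs2 (chr17:14694263-14694512, minus strand) encodes the matrix protein thrombospondin 2. Hspb3 (chr13:113663677-113663926, minus strand), a small heat shock protein gene of muscle, was added after its values were seen. Hspb3 was 66.5 kb from a peak of score 256, with Arl15 at 64.1 kb on the other side, and its match began 12 bases before the start, the closest of these 4.
Myoz2: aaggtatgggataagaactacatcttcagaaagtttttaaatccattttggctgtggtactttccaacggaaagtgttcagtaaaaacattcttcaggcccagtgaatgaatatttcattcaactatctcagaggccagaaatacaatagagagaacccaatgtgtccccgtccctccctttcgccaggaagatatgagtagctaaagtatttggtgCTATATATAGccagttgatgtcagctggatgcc
Synpo2: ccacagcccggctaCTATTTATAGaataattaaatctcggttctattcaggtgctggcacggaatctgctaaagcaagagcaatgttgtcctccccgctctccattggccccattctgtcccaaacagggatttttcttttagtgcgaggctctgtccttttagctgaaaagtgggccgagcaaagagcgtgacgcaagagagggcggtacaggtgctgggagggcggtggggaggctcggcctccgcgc
Thbs2: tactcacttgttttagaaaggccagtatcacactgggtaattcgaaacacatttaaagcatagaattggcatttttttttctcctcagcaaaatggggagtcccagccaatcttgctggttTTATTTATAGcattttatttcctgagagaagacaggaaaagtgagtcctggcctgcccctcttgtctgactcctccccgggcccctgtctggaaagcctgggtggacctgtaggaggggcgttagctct
Hspb3: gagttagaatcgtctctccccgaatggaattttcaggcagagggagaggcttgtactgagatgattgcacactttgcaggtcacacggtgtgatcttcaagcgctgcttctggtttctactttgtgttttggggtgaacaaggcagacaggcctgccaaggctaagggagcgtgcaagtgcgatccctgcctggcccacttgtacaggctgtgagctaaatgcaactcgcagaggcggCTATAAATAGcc

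The score, which the authors deposited for each peak without stating its scale, was spread among these peaks much as in the whole list. Peaks with a higher score are called stronger here. It ran from 50.1 to 1677, with a median of 77.4 (95% order-statistic interval 72.3 to 84.1) and quartiles of 59.6 and 137. Scores of 100 or more were held by 202 peaks, or 37.1% (exact interval 33.0 to 41.3%), against 36.8% of all C2C12 peaks. Scores of 200 or more were held by 77, or 14.1% (11.3 to 17.3%), against 15.2%. Neither share stood apart from the whole list. The median was 75.3 for the 1316 peaks inside coding spans, 84.6 for the 209 outside but within 5 kb, 83.5 for the 236 otherwise like the members but with an lncRNA gene within 5 kb, and 75 for the 491 over 100 kb from any coding span. The order-statistic intervals of all 5 classes overlapped. Members were 4 of the first 20 peaks of the list, 12 of the first 50 (24.0%), 21 of the first 100 (21.0%) and 91 of the first 500 (18.2%), close to their 19.5% of all peaks. These intervals cover counting error only, and peaks of 1 library are not replicates.

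**Figure D1:**
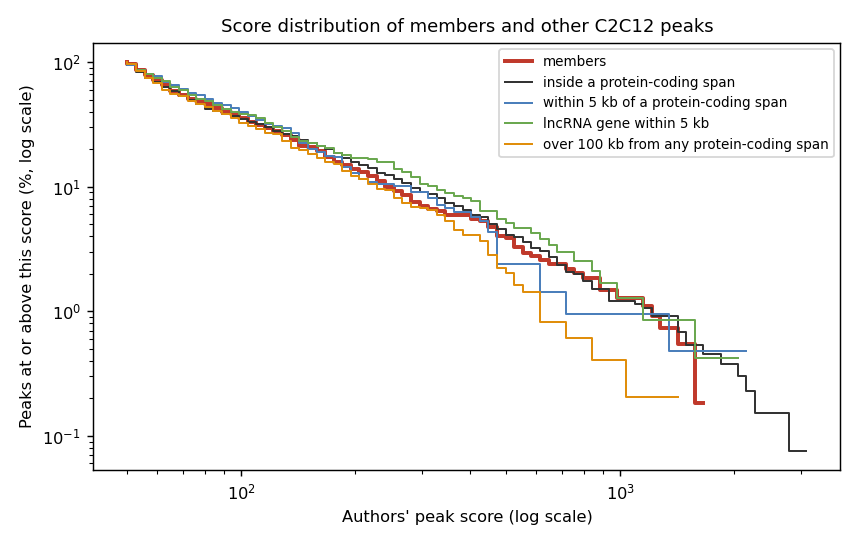
Share of peaks (percent, log scale) at or above each value of the authors' score (log scale), for the 545 members (thick line) and 4 other classes of C2C12 peaks. The curves run together up to a score of about 200, where 14.1% of members remain, and only peaks inside coding spans exceed 2172.

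Width went with score. The narrowest class of 139 peaks (52 to 116 bp) had a median score of 59.7, and 10 of them reached 100. In the widest class of 136 (228 to 3636 bp) the median was 211 and 119 reached 100. Weak members were therefore mostly narrow and strong ones wide; both values come from the same peak call. The peak of 3636 bp, the widest in the C2C12 list, stood alone in size: the next widest member measured 784 bp.

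Relative to the sequence that the rule admits, these peaks thinned out with distance from genes. The rule admits 593 Mb of the genome, which held 0.919 peaks per Mb (exact Poisson 95% interval 0.843 to 0.999). From 5 to 10 kb from the nearest coding span there were 105 peaks, or 1.2 per Mb (0.982 to 1.45). From 10 to 20 kb there were 124, or 1.02 per Mb (0.852 to 1.22), and from 20 to 50 kb 180, or 0.890 per Mb (0.765 to 1.03). From 50 to 100 kb there were 136, or 0.747 per Mb (0.626 to 0.883). The intervals of neighbouring classes overlapped, while those of the nearest and the farthest class did not (0.982 against 0.883). Peaks less than 1 kb apart are not independent, so all intervals of density given here are too narrow. Density was not counted again with such peaks merged. Score did not follow the same order, since the median was 71.8, 77.5, 85.9 and 75.1 in the 4 classes from near to far, with overlapping intervals. Outside the rule, density was 1.28 per Mb inside coding spans, 1.39 within 5 kb of them, 1.80 beside lncRNA genes and 0.625 beyond 100 kb. The members lay between these, and the interval of none of those classes overlapped theirs. How much of each class can be aligned was not tested.

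**Figure D2:**
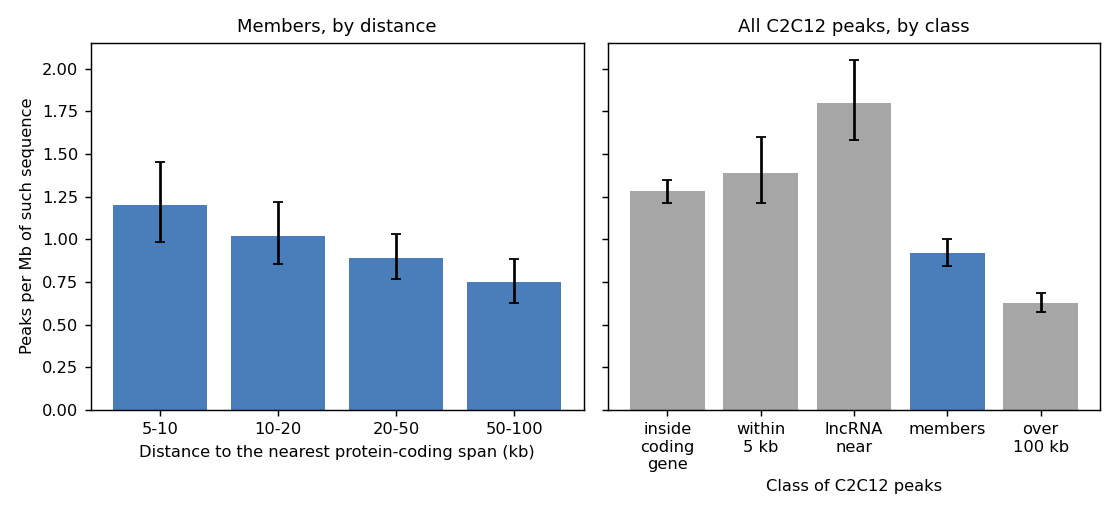
Peaks per Mb of genome in each class, with exact Poisson 95% intervals as error bars; members by distance to the nearest coding span on the left, all C2C12 peaks by class on the right. Density is 1.2 per Mb at 5 to 10 kb and 0.747 at 50 to 100 kb.

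The nearer flanking span was a median of 23.8 kb away (quartiles 12.2 and 49.1 kb) and the farther one 101 kb (quartiles 41.2 and 285 kb). For 268 peaks (49.2%, exact interval 44.9 to 53.5%) both flanking genes lay within 100 kb, against 42.5% of the bases the rule admits. For 216 peaks (39.6%) the farther gene was at least 5 times as distant as the nearer, so that proximity singled out 1 gene more clearly there. The like share of admitted bases was not counted. Peaks with both genes within 100 kb reached a score of 100 in 95 of 268 cases (35.4%), and those with only 1 in 107 of 277 (38.6%). The tightest case was a peak of score 111 at chr17:25803120-25803322, 6.08 kb from Metrn, which encodes the secreted protein meteorin, and 5.14 kb from Fbxl16. A peak of score 77.4 at chr10:52036868-52037038 lay 8.40 kb from Vgll2, a muscle cofactor of TEAD factors, and 7.83 kb from the receptor kinase gene Ros1.

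**Figure D3:**
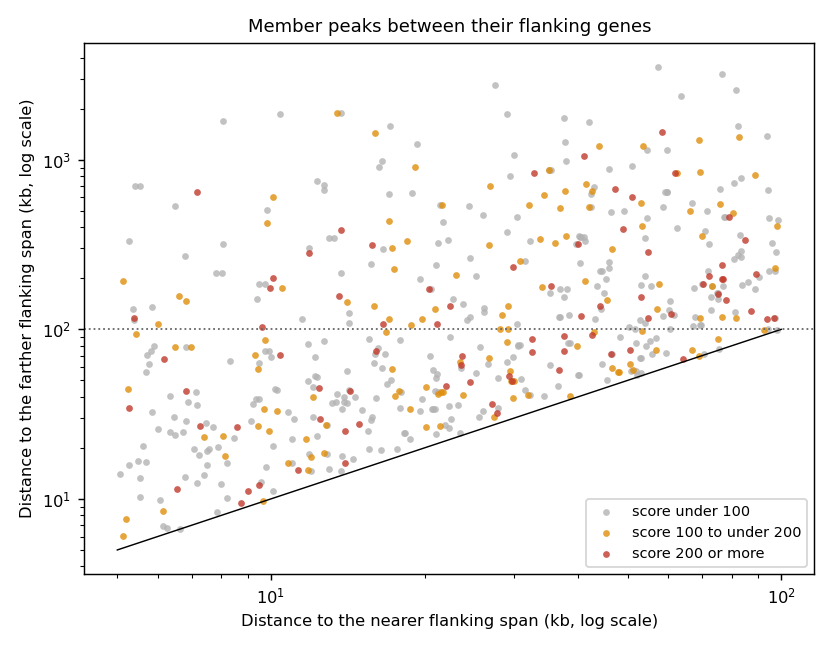
Distance from each member to its nearer (x, kb, log scale) and farther (y, kb, log scale) flanking coding span, coloured by score; the line marks equal distances and the dotted line 100 kb. The 268 peaks below the dotted line have both genes within 100 kb, and strong peaks occur on both sides of it. The 3 members with no coding span on 1 side of the chromosome are left out.

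Gene orientation was known where RefSeq's promoter table gives a strand, which it did for the nearest gene of 427 peaks. Of these, 237 (55.5%, exact interval 50.6 to 60.3%) lay on the start side of that gene, against 52.8% of admitted bases. Among peaks of score 100 or more the share was 53.5% (85 of 159, interval 45.4 to 61.4%). Both intervals include the share of bases, so no excess upstream of genes was detectable. With strands known on both sides (374 peaks), the starts of both genes faced 108 peaks (28.9% against 26.0% of bases). A start and an end faced 217 (58.0% against 55.1%). The ends of both genes faced 49 (13.1%, interval 9.85 to 16.9%, against 18.9% of bases), a smaller share of these peaks than of the bases. Peaks of 1 run share a gap, so all these intervals are too narrow.

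The strongest member, which scored 1677 and ranked 10 among all C2C12 peaks, lay at chr1:65846928-65847630. It was 78.9 kb from the lens crystallin gene Crygf and 457 kb from the receptor gene Pth2r. The second (score 1656, chr7:58843898-58844562) lay 13.7 kb beyond the end of Atp10a, a phospholipid flippase gene, with the ubiquitin ligase gene Ube3a 384 kb away on the other side. The third (score 1580, chr5:16633007-16633560) lay 13.6 kb beyond the end of Hgf, which encodes hepatocyte growth factor, an activator of muscle satellite cells. Its other neighbour, Gm28710, was 158 kb away, so Hgf was by far the nearer. The fourth (score 1432, chr4:135676364-135676859) had the start of Ifnlr1, an interferon receptor gene, 9.60 kb away and that of the epidermal transcription factor gene Grhl3 at 103 kb. The fifth (score 1283, chr1:24611531-24615166) was the peak of 3636 bp, and it overlapped the pseudogene Gm10222. Its neighbours were the collagen gene Col19a1 at 23.6 kb and Lmbrd1, which serves lysosomal vitamin B12 export, at 61.8 kb. The width of this peak set it apart from all other members. Whether its reads were placed correctly, or came from similar sequence elsewhere, was not tested, so its score may not reflect MEF2A binding there.

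Among ranks 6 to 10, Eya1 and Des were the genes with a known role in muscle that lay within 100 kb. The sixth (score 1225, chr1:14360014-14360462) was 49.0 kb from Eya1, a transcriptional coactivator of muscle progenitors. On its other side, at 393 kb, stood Msc, which encodes musculin, a repressor of MyoD activity. The tenth (score 925, chr1:75347271-75347744) lay 12.5 kb before the start of Des, the gene of the muscle intermediate filament desmin (chr1:75360292-75368579). The start of Dnpep, an aminopeptidase gene, faced it from the other side at 29.6 kb. Des and Eya1 were thus the nearer gene in each case. The seventh (score 1164) had Smad1, a mediator of BMP signals, at 162 kb and the predicted gene Gm51579 at 75.2 kb. The eighth (1008) stood 7.18 kb from the aldolase retrogene Aldoart1 and 642 kb from the corepressor gene Tle1. The ninth (927) was 54.9 kb before the start of Ywhaq, which encodes a 14-3-3 protein, with Gm46305 on the other side at 285 kb.

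Ranks 11 to 20 had scores between 544 and 814. The peak of 814 was the one near Mir130a. That of 763 lay 89.2 kb beyond the end of Postn, the matrix gene periostin, and 212 kb from Supt20. That of 752 lay 93.8 kb from Trim52 and 115 kb before the start of Spry2, an inhibitor of receptor kinase signalling. Spry2 thus faced it from beyond the limit for flanking genes. A further peak in that gap, at 53.2 kb from Trim52 and 156 kb from Spry2, scored 539, so both lay nearer to Trim52. That of 678 stood 11.9 kb before the start of Stc2, a stanniocalcin gene, and 283 kb from Bod1. Btg1, an antiproliferative gene, was 206 kb from the peak of 631, whose nearer neighbour was Gm46240 at 72.1 kb. The peak of 598 lay between the kinesin gene Kif13a (29.3 kb) and Nhlrc1 (52.9 kb), and that of 577 between Trim33 (87.2 kb) and Syt6 (129 kb). That of 576 faced the start of Prnp, the prion protein gene, at 6.83 kb and that of Erv3 at 43.0 kb. The homeobox gene Hlx stood 50.9 kb from the peak of 545, with the MAPK phosphatase gene Dusp10 on the far side at 600 kb. The peak of 544 lay between Adcy8 (76.7 kb), an adenylate cyclase gene, and Asap1 (239 kb). In 15 of the 20 the farther gene was more than 100 kb away.

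**Figure D4:**
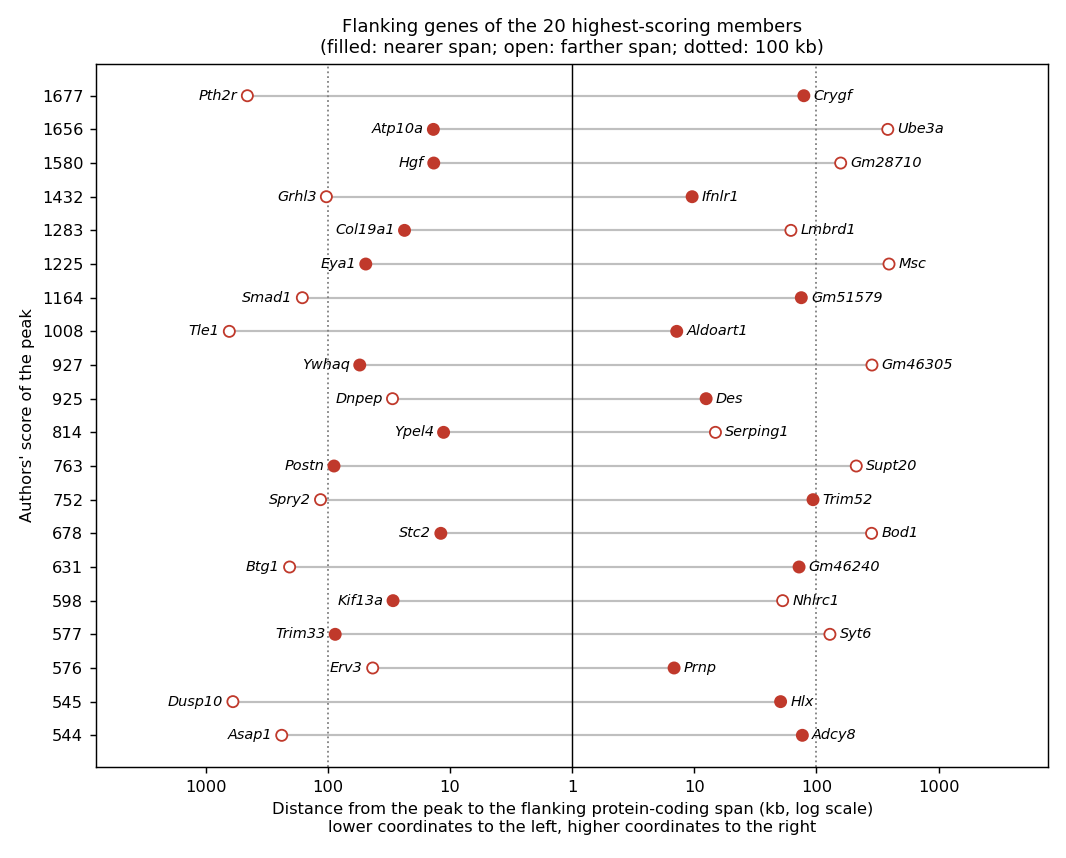
Distance in kb (log scale) from each of the 20 highest-scoring members, marked by their score on the y axis, to the coding genes at lower (left) and higher (right) coordinates. Filled points are the nearer gene. In 15 of the 20 rows the other point lies beyond the dotted 100 kb line, against 277 of all 545 members. Des is at 12.5 kb and Eya1 at 49.0 kb.

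Within 100 kb on either side, the 545 peaks flanked 676 protein-coding genes, or 3.09% of the 21887 on the placed chromosomes, and 470 genes (2.15%) were the nearest of some peak. A peak of score 100 or more flanked 282 genes (1.29%). To see which kinds of genes these were, 16 gene lists with 632 genes were counted, and 64 of the listed genes (10.1%) flanked a member. The lists were drawn up with earlier results of these data known, so their counts are not independent evidence of a preference for any of them. Lists also differ in how much admitted sequence lies beside their genes. Their median per gene is therefore given below, beside the 15.8 kb of all coding genes, as is the number of pairs of a gene and a member per Mb of it, beside 0.962 (exact Poisson interval 0.897 to 1.03) over all coding genes. Pairs that share a peak or lie in 1 run are not independent, so those intervals are too narrow.

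Sarcomere and contractile genes, which build the thick and thin filaments and the Z-disc, flanked a member in 9 of 66 cases (13.6%). Their admitted sequence was short (median 7.53 kb per gene), and they gave 6.90 pairs per Mb (3.44 to 12.3). The count was 5 with members over 10 kb from a gene and also 5 with the nearest gene only. Only Des, described above, had a peak of score 100 or more. The M-band gene Myom3 had a peak of 94.8 at 12.9 kb, beyond its end, and Actn2, which encodes the Z-disc crosslinker alpha-actinin, had one of 88.5 at 44.3 kb, farther than its other neighbour Heatr1 (10.2 kb). A peak of 71.5 lay 5.78 kb before the start of the fast myosin gene Myh2 and 62.8 kb beyond the end of the embryonic myosin gene Myh3. The skeletal actin gene Acta1 had peaks of 69.5 and 57.5 at 6.73 and 8.47 kb past its end. The cardiac actin gene Actc1 had a close pair of 62.5 and 53.9 at 38.8 and 38.7 kb, with Aqr nearer at 9.33 kb. Apart from that of Des, these peaks scored under 100 and ranked 1091 or lower among the 2797. Those of Myom3 and Actn2 were above the median of the whole list (77.0), and the others below it. The weakest, at chr3:123053687-123053937 with a score of 51.5, lay between Myoz2 (18.7 kb, start side) and Synpo2 (22.6 kb, end side), both genes of Z-disc proteins and both with a MEF2 motif match in the promoter printed above.

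Genes of the costamere, adhesion and the dystrophin complex, which tie the sarcomere to the membrane and matrix, flanked a member in 6 of 45 cases (13.3%; median 35.3 kb admitted, 2.53 pairs per Mb, 0.928 to 5.50). Here 4 of the 6 had a peak of 100 or more. The fibronectin receptor subunit gene Itga5 stood 26.6 kb from a peak of 273, on its start side, although Gtsf1 was nearer at 8.57 kb. Itga8, another integrin gene, stood 57.1 kb from a peak of 197 past its end. The membrane repair gene Dysf had a peak of 136 at 36.1 kb past its end, and Ank3, an ankyrin gene, one of 132 at 29.8 kb. Parva and Itgav had weaker peaks, of 83.9 and 77.8, and Zc3h15 was nearer to the latter (12.1 against 45.5 kb). The gap of Parva is shared with Tead1, whose span was nearer to that peak (16.0 against 71.5 kb). The count was 3 with the nearest gene only and 10 without the lncRNA condition.

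Myogenic regulators and differentiation genes flanked a member in 5 of 51 cases (9.80%; median 47.8 kb, 1.46 pairs per Mb, 0.474 to 3.41), and in all 5 the listed gene was the nearest. Eya1 led. Rbfox2, a muscle splicing regulator, had a peak of 225 at 9.48 kb, and Musk, the receptor kinase of the neuromuscular junction, one of 87.5 at 10.0 kb before its start. Mbnl1, another splicing regulator (63.7, at 83.3 kb), and Id3, an inhibitor of MyoD-family factors (56.3, at 20.5 kb before its start), had weaker ones. Among MEF2 genes and cofactors 5 of 30 (16.7%; median 33.7 kb, 3.56 pairs per Mb, 1.16 to 8.31) flanked a member. The strongest was a peak of 223 at 87.6 kb past the end of Mrtfb, a serum response factor coactivator, with Parn nearer at 32.5 kb. Tead1 (83.9), Vgll2 (77.4), Mef2c itself (66.2, at 42.0 kb before its start) and Myocd (58.8, at 95.9 kb) followed, all under 100. Ros1, as given above, was nearer than Vgll2, and with the nearest gene only the count was 3.

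MAPK genes and dual-specificity phosphatases, the pathway whose p38 branch and Dusp6 the series title names, flanked a member in 7 of 49 cases (14.3%; median 26.1 kb, 4.51 pairs per Mb, 2.16 to 8.29). The highest score was 132, for a peak 89.0 kb before the start of Spred2, an inhibitor of Ras signalling. The p38 activator gene Map2k6 had one of 99.9 at 83.2 kb past its end. Dusp6, which encodes the ERK phosphatase, had 3 member peaks: a close pair of 60.0 and 93.5 at 12.3 and 12.2 kb on its start side, and 1 of 58.9 at 30.3 kb past its end. On the far side of the pair stood Poc1b at 52.7 and 52.9 kb, and on that of the third peak Csl at 460 kb, so Dusp6 was nearest to all 3. Dusp26 (56.6) and Spry4 (54.4) also flanked members, with Ndfip1 nearer than Spry4 (53.1 against 67.9 kb). The count for the list was 4 with members up to 50 kb from a gene. Of the immediate early and AP-1 genes 3 of 32 (9.38%; median 23.1 kb, 2.32 pairs per Mb, 0.478 to 6.77) did so, none with a score of 100: Fosb (78.3, at 22.7 kb), Ccn1 (73.6, at 55.6 kb) and Fosl2 (71.4, at 34.3 kb). Fosl2 was the only 1 of these 3 to be the nearest gene, since Ercc1 lay 11.0 kb from the peak of Fosb and Ddah1 53.0 kb from that of Ccn1. Without the lncRNA condition the count was 7.

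Extracellular matrix genes had the highest share of the 16 lists, with 9 of 43 (20.9%; median 69.0 kb, 4.59 pairs per Mb, 2.51 to 7.71), and all but Vcan (whose neighbour Xrcc4 was nearer, at 46.7 kb) were the nearest gene. After Postn came the proteoglycan gene Vcan (195, at 59.0 kb before its start), the protease gene Adamts5 (173, at 82.7 kb) and Has2, a hyaluronan synthase gene (109). Has2 had 4 member peaks: those of 96.5, 109 and 56.6 at 94.4, 41.4 and 12.3 kb on its lower side, and 1 of 55.2 at 94.5 kb on the other. No other coding gene lay within 400 kb of them. Thbs2 had peaks of 64.6 and 59.6, Lox, the collagen crosslinking enzyme, had 56.6 and 55.2, and Col3a1 had 1 of 59.4 at 9.84 kb before its start. Tnc (57.8) and Col6a3 (53.9) completed the list. Growth factor genes flanked a member in 4 of 46 cases (8.70%; median 96.9 kb, 0.993 pairs per Mb, 0.271 to 2.54), with Gdnf (164, at 25.3 kb), Bmp2 (135, at 53.0 kb) and Tgfb2 (55.8, at 54.5 kb) besides Hgf. Wdr70 was nearer than Gdnf to its peak, at 9.92 kb. Their pairs per Mb were close to those of all coding genes.

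Cardiac and developmental transcription factor genes flanked a member in 8 of 45 cases (17.8%), all as the nearest gene. They lie in wide gaps (median 100 kb admitted per gene), and gave 1.88 pairs per Mb (0.859 to 3.57). Runx1 had a peak of 359 at 27.7 kb past its end, in the gap that it shares with Clic6 (32.1 kb). The mesenchymal homeobox gene Prrx1 had peaks of 234 and 73.9 at 22.4 and 9.38 kb past its end. Foxp1 (72.0), Zeb2 (63.9), Isl1 (57.2), Pbx3 (55.0) and Meis2 (54.1) had weaker ones. Among calcium handling genes 2 of 43 (4.65%) flanked a member. Trdn, which encodes triadin of the sarcoplasmic reticulum, had a peak of 236 at 9.94 kb, and Rcan1, an inhibitor of calcineurin, 1 of 53.9 at 6.0 kb before its start.

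The remaining lists had few members. Energy metabolism gave 2 of 47 (4.26%), Pdk4 (61.6, at 13.7 kb) and Ppara (53.2, at 51.8 kb), and ion channels and pumps 1 of 34 (2.94%), Kcnc4 (57.3, at 88.1 kb, with Rbm15 nearer at 15.6 kb). Lists of other cell types were counted for contrast. Endothelial genes gave 1 of 26 (3.85%), Ets2 (52.1), and neuronal genes 2 of 25 (8.0%), Nefl and Nefm, which flank the same peak of 54.7. Hepatocyte genes gave 0 of 26 and leukocyte genes 0 of 24, which at their admitted sequence allows up to 3.42 and 7.27 pairs per Mb. Without the lncRNA condition the counts were 1 and 2, so both zeros depend on that limit, and ion channels and pumps then gave 4. In 12 of the 16 lists the interval of pairs per Mb included the 0.962 of all coding genes, calcium handling among them (1.08, 0.131 to 3.91). The 4 whose intervals lay above it were the sarcomere, MEF2, MAPK and matrix lists, and no test between lists was made. The MEF2 list came closest to it (lower end 1.16) and rests on 5 genes. With peaks less than 1 kb apart merged its count was 4, and its interval was not computed again. Over all C2C12 peaks, members included, 21 of 43 matrix and 26 of 66 sarcomere genes were the nearest span of a peak. So were 1 of 26 hepatocyte and 0 of 24 leukocyte genes, against 1690 of all 21887 coding genes. The contrast between these lists was thus not particular to members.

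**Figure D5:**
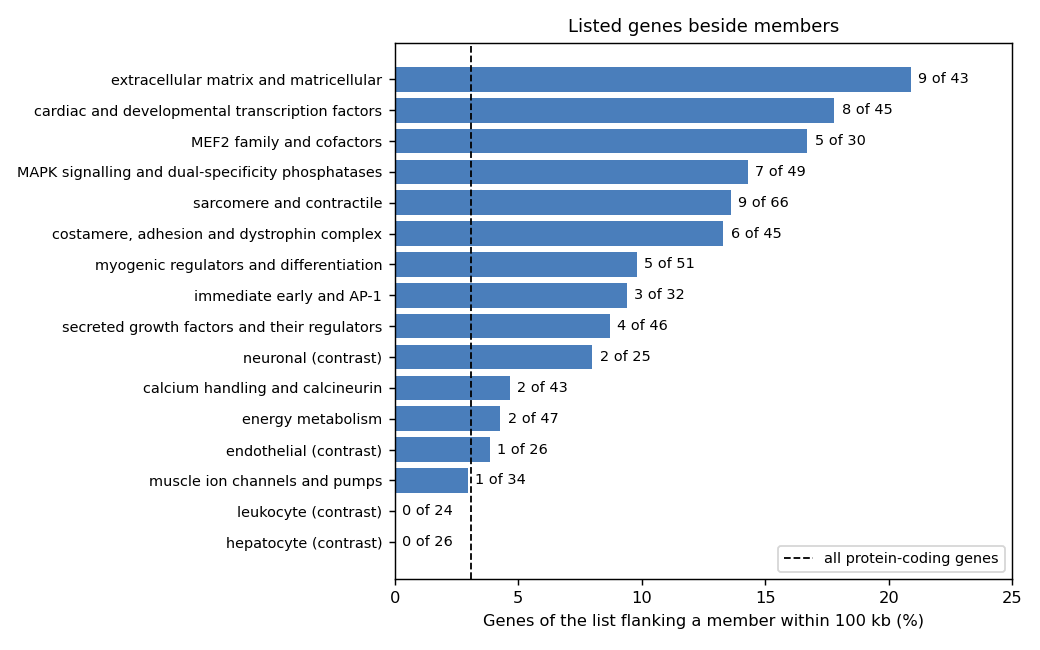
Percent of each list's genes that flank a member within 100 kb on either side, with counts beside the bars; the dashed line is the 3.09% of all protein-coding genes. Matrix genes stand highest (9 of 43), and the hepatocyte and leukocyte lists have none.

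Some member peaks shared a gap between genes. The 545 peaks lay in 454 gaps, of which 71 held 2 or more and together 162 peaks. Among the members, 88 stood less than 1 kb from another peak, which adds to such sharing. No like count was made for all C2C12 peaks or for gap length. On the gene side, 568 genes flanked 1 member, 82 flanked 2 and 26 flanked 3 or more. Some of these were separate sites and others dense runs. The gene Myh10, nonmuscle myosin heavy chain, shared 3 peaks with Ccdc42: a pair of 55.0 and 92.2 at 53.9 and 53.7 kb before its start, and 1 of 60.2 at 16.2 kb. Sphk1, the sphingosine kinase gene, shared 3 with Prpsap1, at 12.3, 7.45 and 6.83 kb before its start and with scores of 55.5, 55.8 and 66.8. Tsc22d2 had peaks of 149, 63.4 and 187, of which the last 2 adjoined at 42.3 and 42.0 kb, and Metap2 and Vezt shared peaks of 122, 52.2 and 77.2. Erv3 and Prnp shared the peak of 576, a neighbour of 50.1 and 1 of 173, and Ap3s1 and Lvrn shared peaks of 315, 145 and 64.9. Trim52, Gm51579, Poc1b and Ndfip1 also flanked 3.

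Peaks less than 1 kb apart form a run, and 88 members (16.1%, exact interval 13.2 to 19.5%) stood in 41 runs, against 15.6% of all C2C12 peaks. Members in runs had a median score of 66.7 and those standing alone 79.1. The longest run held 5 peaks over 3740 bp on chromosome 13, of which 3 (scores 148, 66.3 and 51.5) were members, between Tmem267 and the chemokine gene Ccl28. Next came 4 peaks of 54.7 to 65.6 within 1031 bp on chromosome 4, 40.1 to 41.0 kb before the start of the zinc finger gene Zfp987, with Zfp980 on the other side at 352 kb. A further 6 runs held 3 peaks. One of 1151 bp contained the peak of 1164 beside Gm51579 with 2 of 56.9 and 54.7, and one of 334 bp between Lnpep and the vomeronasal receptor gene Vmn2r90 held scores of 103 to 217. Others lay near Setbp1, near Cldn34c1 and between Zfp978 and Zfp982, the last of which flanked 4 members in all. In the run near Wfdc17 only 1 of 3 peaks was a member.

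Peaks on either side of the rule's limits had scores in overlapping ranges. The members nearest to a coding span were 5.07 kb from Sh2b2 (score 81.0), 5.14 kb from Fbxl16 (111) and 5.14 kb from Cobl (190). Just inside that limit, and so no members, were peaks 4.89 kb from Rcc2 (89.5), 4.80 kb from Lpl (70.2) and 4.76 kb from Srrm3 (99.3). At the far limit stood members 98.4 kb from Osr1 (69.6), 98.0 kb from Pde7a (98.6) and 97.9 kb from Pter (127). Beyond it lay peaks near Sh3bp4 (58.1), Akr1e1 (61.4) and Pcdh18 (79.5), the first by 25 bp. The lncRNA limit divided runs. The member of 83.9 near Tead1 was 5.08 kb from an lncRNA gene, and its neighbour of 90.9 was 4.92 kb from one and left out. Near Wfdc17 the member of 275 was 5.23 kb away and the neighbour of 868 was 4.97 kb away. The remaining peaks nearest to this limit were the member near Adcy8 (5.14 kb) and a peak of 255 near Cacng6 (4.98 kb), which was left out.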

How the data were processed

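MEF2A peaks came from 1 C2C12 ChIP-exo library; DNA fragments of 120 to 160 bp were selected on a gel, per the labels' protocols. Tools listed in the submitters' processing notes are MACS 1.4.2, BWA 0.5.9, CASAVA 1.7.0, SAMtools and Picard; settings are not listed, and mm10 is the mouse build. The authors deposited, per library and without a header, each peak's position and a score. No header states the scale of this score, so it only ranks and filters peaks. The labels do not say whether peak calling used the IgG library. The rat list was only counted.

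Positions, deposited counting from 0, are printed counting from 1. Distances run to the edge of gene spans (RefSeq, GRCm38.p6). Strand and promoter sequences came from RefSeq's promoter table, available for 17492 of 21887 coding genes. Admitted sequence was counted per base between the first and last coding gene of each chromosome. Of 632 listed symbols, 1 was found through a synonym. The rule was checked on simulated data. No p-values were computed, because peaks and genes of 1 library are not replicates.

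Genes named are the flanks of the 20 strongest members, up to 6 genes a list by score (further list members follow with values), genes flanking 3 or more members, and genes at the limits and the longest runs. Some genes that this rule takes are counted in their list but not reported here by name. The members and lists were chosen with earlier results of these data known. Motif, microRNA and orientation counts, density per Mb, Metrn and Fbxl16, and Vgll2 with Ros1 as a narrow gap were chosen after values were seen. Alternatives were other distance and lncRNA limits, score minimums of 100 and 200, merging peaks under 1 kb apart, leaving out peaks over 2 kb wide, the nearest span only and flanks within 50 kb. Scripts ran in Python 3.11.15 with matplotlib 3.10.9, scipy 1.17.1, numpy 2.4.6 and pandas 2.3.3.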

Additional observations from a re-analysis of the deposited data

How the results depend on the processing

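Fewer peaks enter at a higher score by construction: 202 members remained at a score of 100 or more and 77 at 200 or more, flanking 282 and 111 genes, of which 19 and 10 were listed, against 545, 676 and 64. The share of members with both genes within 100 kb was 42.7% when the nearest span had to be over 10 kb away and 59.4% when it had to be within 50 kb, against 49.2%. The other 38 values for these results stayed within 1.5 times (counts) or within the main interval (medians and shares), including those without the lncRNA condition, with merged peaks and without the peak of 3636 bp. For single lists, 42 counts moved by more than 1.5 times and 86 did not; 26 of the 42 were at a score minimum. Of the other 16, those not given in the results were growth factors (2) and energy metabolism (1) up to 50 kb, calcium handling (0) over 10 kb, and immediate early genes (1), ion channels (0) and neuronal genes (1) by the nearest gene only. No paired analysis was possible because the groups hold 1 library each. With no replicate and no depth given, which weak peaks would be found again is unknown.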

Other observations

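A pseudogene or a small noncoding gene lay within 5 kb of 51 of the 545 members (9.36%, exact interval 7.05 to 12.1%). No like share was counted for all C2C12 peaks or for the admitted bases, so this is a description only. The 9 that overlapped one included, besides the peak of 1283 at Gm10222, a pair on chromosome 18 inside Gm4107 (scores 244 and 52.2) and a peak of 108 over the small nuclear RNA gene Gm25099, 7.40 kb from Kif2c. A pair of 87.4 and 63.7 lay inside the Tcrb locus, 44.2 and 44.6 kb from the trypsinogen gene Try4. The other 3 scored 107, 55.1 and 50.4, the last 36.9 kb from Ptgs2, the cyclooxygenase 2 gene.

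By chromosome, members made up from 9.88% (8 of 81, chromosome 17) to 32.8% (20 of 61, chromosome X) of the C2C12 peaks, against 19.5% in all. Next to these stood chromosome 19 (10.8%), chromosome Y (1 of 8) and, at the upper end, chromosome 13 (23.7%). The sequence that the rule admits on each chromosome was not compared, and the count for X includes 3 peaks of 1 run near Cldn34c1.

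Olfactory and vomeronasal receptor genes, whose symbols begin with Olfr or Vmn, numbered 9 of the 676 flanking genes (1.33%), against 6.69% of all coding genes. Zinc finger genes with symbols in Zfp numbered 10 (1.48%, against 1.83%). These families were chosen after the values were seen, and the sequence admitted beside them was not compared.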
